A study of Arabidopsis thaliana with 30 samples.

Results

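The genes described here are 10 classical low-oxygen metabolism and sensing genes of Arabidopsis thaliana, picked by name and locus out of 27588 loci in the files. Reads and TPM (a level corrected for transcript length and scaled to the same total in each library) were summed over the transcripts of each locus. The 10 are ADH1 (AT1G77120), PDC1 (AT4G33070), PDC2 (AT5G54960), SUS1 (AT5G20830), SUS4 (AT3G43190), HB1 (AT2G16060), LBD41 (AT3G02550), HRA1 (AT3G10040), PCO1 (AT5G15120) and PCO2 (AT5G39890). RNA was sequenced from rosettes of 4-week-old plants that were given 10 ml of 3 mM bicarbonate or of water every 2 days from the age of 2 weeks, under a light intensity of 120 µmol photons per square metre and second. The 5 genotypes were oePsbS_CA1_CA2 (the triple line, oePsbS with added βCA1 and βCA2), oePsbS_CA1 (the double line, oePsbS with added βCA1), oePsbS, npq4-1, which lacks PsbS, and the wild type Col-0. PsbS is the photosystem protein that triggers heat dissipation of excess light, and βCA1 and βCA2 are carbonic anhydrases. The double and triple lines both carried the PsbS transgene in addition to their own, so oePsbS served as their background. Their βCA transgenes were driven by the 35S promoter and, in the triple construct, also by the ROLD promoter. Every genotype was sequenced in 3 libraries per treatment, which gives 10 groups and 30 libraries. The methods describe them as biological samples without saying whether each was a single plant, a pool or an independent line, so p-values measure the spread between these samples.

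When oxygen is short, plant cells ferment pyruvate to ethanol through pyruvate decarboxylase and alcohol dehydrogenase, and sucrose synthase feeds this route by splitting sucrose at a low energy cost. Oxygen is sensed through the plant cysteine oxidases, which mark group VII ERF transcription factors for breakdown in air. These factors persist in hypoxia and switch on a core set of genes, to which many of the members named here belong. Whether PDC2 belongs to that set was not examined here. In rosettes kept in air this set is expected to be expressed weakly. The study annotated many of its bicarbonate-responsive genes as hypoxia-related, and the comparisons address how the 10 genes behaved in the same libraries.

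The libraries held 15346368 to 18326429 assigned reads, with a median of 16877156. Summed over 5 leaf marker genes the level lay between 48940 and 61020 CPM (normalised counts, each library scaled by the trimmed mean of M values). Summed over 5 root marker genes it lay between 26.7 and 35.1 CPM, while the root markers EXPA7, COBL9 and MYB36 were at 0 in all 3 libraries of at least 1 group each. Flower marker genes summed to between 1.22 and 21.9 CPM. PSBS (AT1G44575) had 3324 to 5592 CPM in the 3 lines with added PsbS, 0.12 to 6.28 CPM in npq4-1 and 1366 to 1895 CPM in Col-0. In the triple line βCA1 (BCA1, AT3G01500) had 3342 to 3895 CPM with bicarbonate, against 3627 to 4188 CPM in oePsbS (log2 fold change −0.09, adjusted p = 0.894), and 3611 to 4071 CPM with water, against 2418 to 2564 CPM in oePsbS (0.63, adjusted p = 0.19). βCA2 (BCA2, AT5G14740) with water was above its oePsbS level in the triple line (0.52, adjusted p = 0.000922) and at −0.01 with bicarbonate (adjusted p = 0.979). The library labelled oePsbS_CA1, bicarbonate, replicate 3 had 2409 CPM of βCA1, against 12950 and 14750 CPM in the other 2 libraries of that label. The values of PDC2, HB1, PCO1, RAP2.3, PBP1 and CML38 that rest on this library are given with and without it, and the other oePsbS_CA1 values with it.

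By TPM, HB1, the class 1 phytoglobin that removes nitric oxide, was the most abundant of the 10 genes. Its median over the 30 libraries was 12.7 TPM, with a range of 6.65 to 23.4 TPM. PDC2 and PDC1 encode pyruvate decarboxylases, and they had medians of 9.43 and 0.543 TPM. SUS1 and SUS4 encode closely related sucrose synthases, and their medians were 7.91 and 0.813 TPM. In each pair 1 paralog thus carried most of the message. The alcohol dehydrogenase gene ADH1 had a median of 4.82 TPM. The transcription factor genes LBD41 and HRA1, the second of which encodes a trihelix factor that restrains RAP2.12, had medians of 6.49 and 2.23 TPM. The cysteine oxidase genes PCO1 and PCO2 had medians of 3.29 and 1.20 TPM. Neighbours in this order were not well separated at the top: HB1 exceeded PDC2 in 22 of 30 libraries and PDC2 exceeded SUS1 in 21. The lower ranks were clearer, since LBD41 exceeded ADH1 in 26 libraries, and ADH1 exceeded PCO1, PCO1 exceeded HRA1 and HRA1 exceeded PCO2 in 28 libraries each. At the bottom, PCO2 exceeded SUS4 in 22 libraries and SUS4 exceeded PDC1 in 23. The least read genes were PDC1 and PCO2, each with a median of 17 reads per library, and SUS4, which had between 1 and 95 reads. Changes of these 3 genes are therefore measured less precisely than those of SUS1 and PDC2, with medians of 327 and 296 reads.

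**Figure D1:**
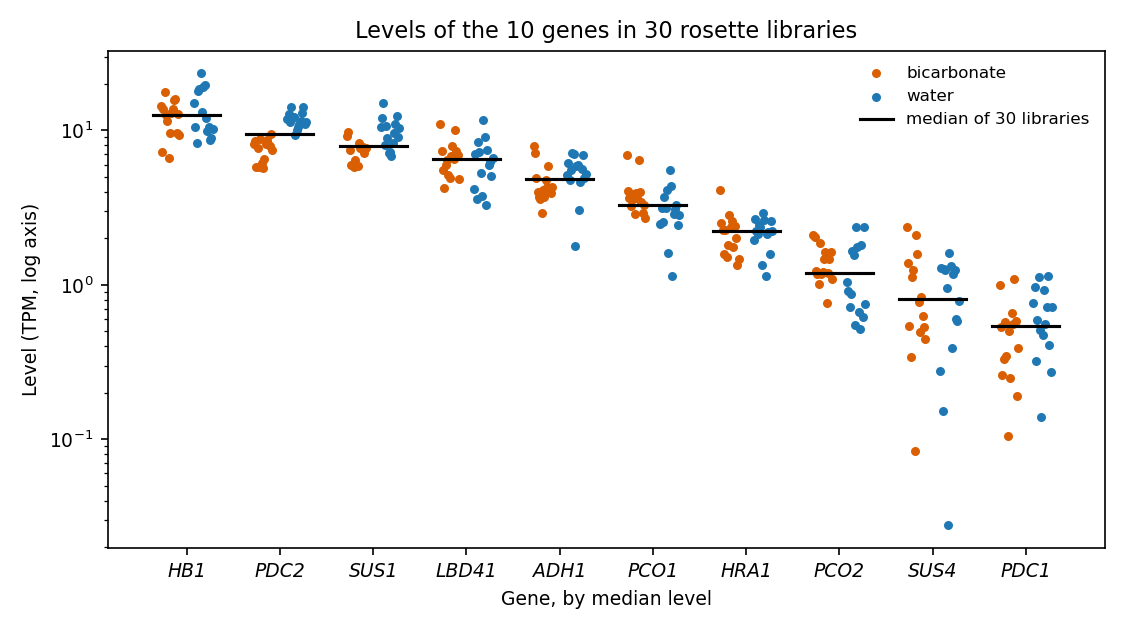
Level of each gene in TPM on a log axis, ordered by the median of 30 libraries (black line). Each point is a library of 1 of the 15 bicarbonate-treated (orange, left) or 15 water-treated (blue, right) samples. The medians run from 12.7 TPM for HB1 to 0.543 TPM for PDC1, and SUS4 has the widest spread, down to 1 read in 1 water library.

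Of the 10 genes, 0 were called in any of the 5 bicarbonate responses, where a call needs a Benjamini-Hochberg adjusted p under 0.05 in edgeR's quasi-likelihood test together with a change of more than 1 on the log2 scale. DESeq2 also called 0 in each. At an unadjusted p under 0.05, edgeR had 3 of 10 in oePsbS_CA1_CA2, 4 in oePsbS_CA1, 2 in oePsbS, 4 in npq4-1 and 5 in Col-0, beside 11.9%, 14%, 30.5%, 15.2% and 9.42% of all genes in that order. The share of all tested genes called in these responses was 1.31% in oePsbS_CA1_CA2, 0.775% in oePsbS_CA1, 1.34% in oePsbS, 0.252% in npq4-1 and 0.313% in Col-0, so 0 of 10 does not set these genes apart from the rest. Their median log2 fold change was −0.31 in oePsbS_CA1_CA2, 0.16 in oePsbS_CA1, −0.18 in oePsbS, −0.42 in npq4-1 and 0.33 in Col-0, while the median of all genes tested lay between −0.01 and 0.01 in each response. In npq4-1 all 10 values were below 0, and in Col-0 7 of 10 were above 0. On the adjusted p alone, 1 of the 10 genes passed in oePsbS_CA1, 1 in oePsbS and 3 in npq4-1, and every value that passed was a decrease. The share of all genes passing on the adjusted p alone was 2.01% in oePsbS_CA1_CA2, 1.93% in oePsbS_CA1, 15.4% in oePsbS, 1.06% in npq4-1 and 0.51% in Col-0. For the mean of the 5 responses, 2 of 10 passed, against 15.8% of all genes, and 0 of 10 were called, against 0.8% of all genes.

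**Figure D2:**
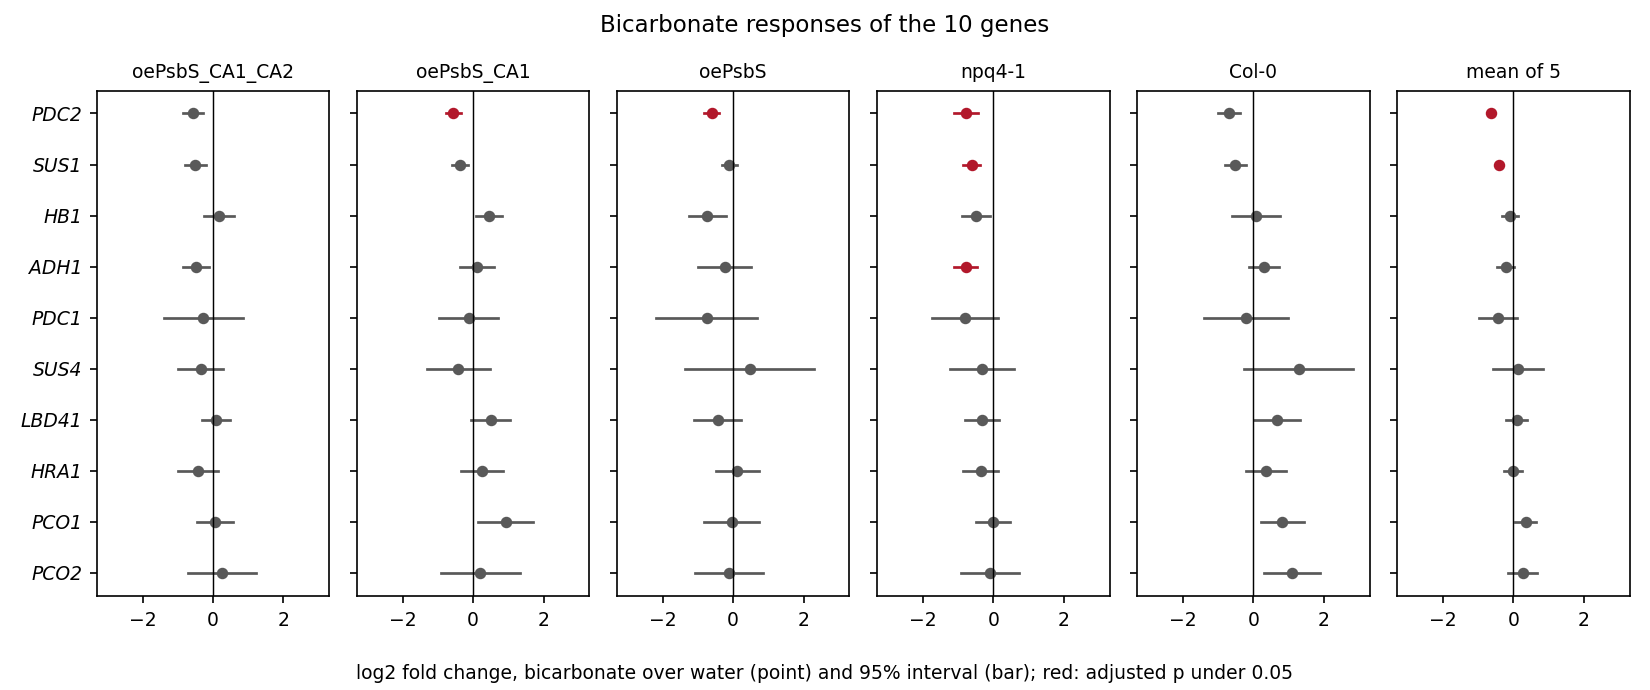
Log2 fold change of each gene, bicarbonate over water, in the 5 genotypes and for the mean of the 5 responses. Points are estimates, bars are 95% intervals and red marks an adjusted p under 0.05. PDC2 lies left of 0 in all 6 panels, between −0.56 and −0.78, whereas SUS4 and PDC1 have wide intervals that include 0.

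PDC2 fell with bicarbonate. In the triple line oePsbS_CA1_CA2 it had 15.2, 18.02 and 14.7 CPM with bicarbonate, against 27.5, 21.5 and 22.3 CPM with water. The double line oePsbS_CA1 had 14.99, 15.9 and 15.4 CPM with bicarbonate, against 21.6, 21.9 and 24.7 CPM with water. In both lines every bicarbonate library lay below every water library. In oePsbS the levels were 11.8, 11.2 and 13.0 CPM with bicarbonate, against 17.97, 18.4 and 19.1 CPM with water. In npq4-1 they were 14.5, 11.0 and 16.9 CPM with bicarbonate, against 27.2, 22.7 and 22.5 CPM with water. In Col-0 they were 14.8, 16.1 and 11.4 CPM with bicarbonate, against 22.6, 24.7 and 20.95 CPM with water. In these 3 genotypes too the treatments did not overlap, and oePsbS had the lowest mean of the 5 genotypes under both treatments. The share of all genes without overlap was not counted, here or for the genes below, so a lack of overlap is only a description.

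The log2 fold change of PDC2 averaged over the 5 genotypes was −0.64 (standard error 0.06, 95% interval −0.76 to −0.52, adjusted p = 2.16e-08). It kept an adjusted p under 0.05 without any 1 of the 30 libraries, where the log2 fold change ranged between −0.67 and −0.61. By genotype it passed in oePsbS (−0.61, standard error 0.10, adjusted p = 0.00366), in oePsbS_CA1 (−0.56, standard error 0.09, adjusted p = 0.0158) and in npq4-1 (−0.78, standard error 0.15, adjusted p = 0.0435). The fits of 6 libraries missed the threshold in oePsbS_CA1_CA2 (−0.56, standard error 0.13, adjusted p = 0.0576) and in Col-0 (−0.69, standard error 0.14, adjusted p = 0.0761), and in a fit of all 30 libraries these adjusted p-values were 0.0116 and 0.00563. The 6 differences between PDC2 responses of 2 genotypes lay between −0.09 and 0.13, with 95% intervals within −0.46 to 0.51 and adjusted p of at least 0.874. The npq4-1 value no longer passed without water replicate 1, 2 or 3 or bicarbonate replicate 2 (adjusted p of 0.0903 to 0.15). That in oePsbS_CA1 no longer passed without water replicate 2 or 3 (0.0683 and 0.0629), and without the library low in βCA1 it was −0.56 with an adjusted p of 0.0249. In whole rosettes, fewer cells of a type and less RNA per cell cannot be told apart. All 8 genes of a cold and abscisic acid marker list had a lower mean response with an adjusted p under 0.05 in the same libraries, with a median log2 fold change of −1.02, and the part of such wider changes in the PDC2 result was not tested.

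SUS1, the more abundant sucrose synthase gene, also fell with bicarbonate. The triple line had 19.6, 17.1 and 19.9 CPM with bicarbonate, against 32.1, 22.4 and 25.9 CPM with water. The double line had 19.4, 18.2 and 18.5 CPM with bicarbonate, against 21.3, 23.5 and 27.2 CPM with water. In both lines the bicarbonate libraries lay below the water libraries. In oePsbS it had 16.2, 14.7 and 15.5 CPM with bicarbonate, against 17.5, 16.97 and 15.8 CPM with water. In npq4-1 it had 14.3, 14.7 and 14.8 CPM with bicarbonate, against 19.5, 25.5 and 21.4 CPM with water. In Col-0 it had 21.3, 23.7 and 19.7 CPM with bicarbonate, against 25.7, 30.8 and 36.1 CPM with water. The treatments were apart in npq4-1 and Col-0 and overlapped in oePsbS, where both sets were low.

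The mean response of SUS1 over the 5 genotypes was −0.42 on the log2 scale (standard error 0.06, 95% interval −0.54 to −0.31, adjusted p = 6.66e-06), and it kept an adjusted p under 0.05 without any 1 of the 30 libraries. Among the single genotypes it passed in npq4-1 (−0.61, standard error 0.11, adjusted p = 0.0398), and no longer passed without water replicate 2 or 3 or bicarbonate replicate 2 or 3 (adjusted p of 0.0905 to 0.15). The values that did not pass were −0.50 in oePsbS_CA1_CA2 (adjusted p = 0.113), −0.36 in oePsbS_CA1 (adjusted p = 0.124), −0.11 in oePsbS (adjusted p = 0.494) and −0.52 in Col-0 (adjusted p = 0.182). In the fit of all 30 libraries the adjusted p was 0.0204 in oePsbS_CA1_CA2 and 0.0253 in Col-0. The response of oePsbS minus that of Col-0 was 0.40 (95% interval 0.04 to 0.77, adjusted p = 0.327), and that of oePsbS_CA1_CA2 minus that of oePsbS was −0.39 (95% interval −0.76 to −0.03, adjusted p = 0.146), so the responses were not shown to differ.

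SUS1 also separated oePsbS from Col-0 and from the double and triple lines under water. With water, oePsbS averaged 16.8 ± 0.888 CPM and Col-0 30.9 ± 5.18 CPM (SD, n = 3 each), and no library overlapped. The log2 fold change was −0.88 (standard error 0.12, adjusted p = 9.02e-05). It passed without any 1 of the 6 libraries, at values between −0.999 and −0.755. The triple line, at 26.8 ± 4.88 CPM, stood above oePsbS by 0.68 (standard error 0.12, adjusted p = 0.000723). The double line, at 24.0 ± 3.03 CPM, stood above oePsbS by 0.52 (standard error 0.13, adjusted p = 0.0139), and no longer passed without oePsbS replicate 3 (0.0844) or oePsbS_CA1 replicate 3 (0.114). These 3 values share the oePsbS libraries. With water, npq4-1 lay between oePsbS and Col-0, at 22.2 ± 3.05 CPM. Against Col-0 it stood at −0.48 (adjusted p = 0.056, and 0.0204 in DESeq2), and oePsbS against npq4-1 was not tested. A lower level than in Col-0 was thus not shown to be particular to oePsbS, and for npq4-1 it did not pass in the main test. On the adjusted p alone, 1 of the 10 genes passed for oePsbS against Col-0, beside 8.56% of all genes, 1 for oePsbS_CA1 against oePsbS, beside 5.75%, and 2 for oePsbS_CA1_CA2 against oePsbS, beside 13.7%. Flower marker genes summed to 9.79, 18.1 and 21.9 CPM in oePsbS with water, against 5.50, 4.14 and 15.1 CPM in Col-0, 3.31, 8.75 and 2.43 CPM in the double line and 5.37, 6.34 and 5.40 CPM in the triple line. Their part in the SUS1 result was not tested.

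HB1 was the single gene of the 10 with a call, and the call was for a difference between responses. In oePsbS_CA1 it had 5.48, 6.30 and 6.74 CPM with bicarbonate, against 5.13, 4.08 and 4.32 CPM with water. In oePsbS it had 2.80, 4.05 and 5.72 CPM with bicarbonate, against 5.47, 7.76 and 7.81 CPM with water. The bicarbonate libraries were thus the higher ones in the double line and mostly the lower ones in oePsbS, where 1 bicarbonate library overlapped the water range. The response was 0.46 in oePsbS_CA1 (standard error 0.17, adjusted p = 0.236, and 0.39 with an adjusted p of 0.45 without the library low in βCA1) and −0.73 in oePsbS (standard error 0.24, adjusted p = 0.0664), so neither passed alone. The oePsbS value was −0.87 (adjusted p = 0.0269) without its water replicate 1 and −1.04 (adjusted p = 0.0299) without its bicarbonate replicate 3. These were its lowest water and its highest bicarbonate library, so leaving either out deepens the fall by construction. The response of oePsbS_CA1 minus that of oePsbS was 1.19 (standard error 0.35, 95% interval 0.47 to 1.92, adjusted p = 0.037). It was 1 of 10 genes called in a comparison where 2.13% of all genes were called and 8.06% passed on the adjusted p alone. The adjusted p rose above 0.05 without any 1 of 8 of the 12 libraries, namely replicate 2 or 3 of either water group, replicate 1 or 2 of oePsbS with bicarbonate and replicate 2 or 3 of oePsbS_CA1 with bicarbonate, where it lay between 0.062 and 0.0956. Without the library low in βCA1 the adjusted p was 0.0801. For the triple line minus oePsbS the value was 0.90 (95% interval 0.16 to 1.65, adjusted p = 0.0969), in a comparison where 3.12% of all genes were called.

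In the triple line HB1 had 3.97, 5.24 and 4.18 CPM with bicarbonate, against 3.69, 3.77 and 4.51 CPM with water. In npq4-1 it had 7.23, 5.19 and 5.04 CPM with bicarbonate, against 7.53, 7.44 and 9.37 CPM with water. In Col-0 it had 5.59, 2.91 and 6.19 CPM with bicarbonate, against 6.27, 4.39 and 3.37 CPM with water. With water, npq4-1 had the highest mean of the 5 genotypes and the triple line the lowest. With water, the triple line was lower than oePsbS (log2 fold change −0.82, standard error 0.25, adjusted p = 0.03), a result lost in 5 of the 6 fits without 1 library (adjusted p of up to 0.124). The value of npq4-1 against Col-0 with water was 0.80 (standard error 0.25, adjusted p = 0.102).

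**Figure D3:**
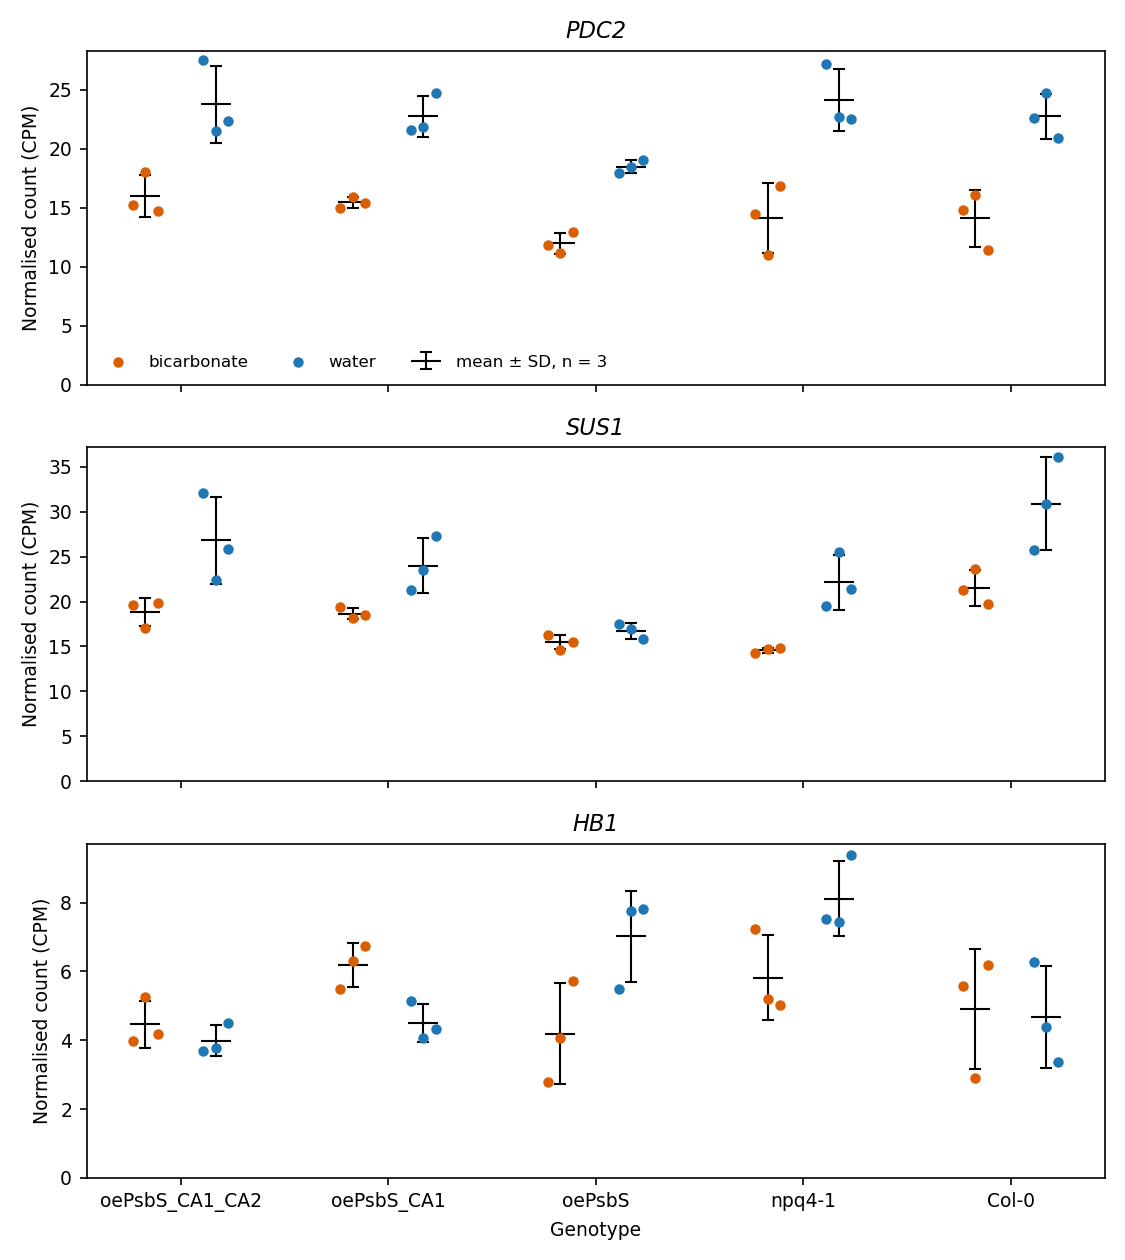
Normalised counts (CPM) of PDC2, SUS1 and HB1 in each genotype, with bicarbonate (orange, left) and water (blue, right). Points are libraries, and black marks are the mean ± SD of 3. PDC2 is lower with bicarbonate in every genotype, and SUS1 in all but oePsbS, where the treatments overlap. All HB1 libraries are higher with bicarbonate in oePsbS_CA1 and lower in npq4-1, and in oePsbS the mean is lower with overlap. No HB1 response in a single genotype passed on the adjusted p.

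Of the fermentation genes, ADH1 passed in 1 response. It had 4.95, 4.61 and 4.57 CPM in npq4-1 with bicarbonate, against 7.01, 8.70 and 8.57 CPM with water, so the treatments were well apart. The log2 fold change was −0.79 (standard error 0.15, adjusted p = 0.0432), and it no longer passed without water replicate 2 or 3 or bicarbonate replicate 2 or 3 (adjusted p of 0.109 to 0.19). In the fit of all 30 libraries the adjusted p was 0.141. In Col-0, ADH1 had 9.48, 8.84 and 6.38 CPM with bicarbonate, against 6.46, 7.91 and 5.77 CPM with water, with overlap. The response of npq4-1 minus that of Col-0 was −1.08 (95% interval −1.84 to −0.32), with an adjusted p of 0.991 in a comparison where 0% of genes were called. The other ADH1 responses were −0.24 in oePsbS, 0.11 in oePsbS_CA1 and −0.48 in oePsbS_CA1_CA2, with adjusted p of 0.681, 0.878 and 0.248. Without water replicate 1 of oePsbS, ADH1 fell in oePsbS (−0.59, adjusted p = 0.0491) and in the mean of the 5 genotypes (−0.30, adjusted p = 0.0226), where the value with all libraries was −0.22 (adjusted p = 0.217). ADH1 was lowest of its group in that library, so leaving it out deepens the fall by construction. PDC1, the weak pyruvate decarboxylase gene, lay between 0.195 and 2.13 CPM, and its responses of −0.81 to −0.13 had adjusted p of at least 0.405.

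SUS4 was the most variable of the 10. In oePsbS it had 0.195, 5.01 and 3.92 CPM with bicarbonate, against 0.0644, 3.58 and 2.96 CPM with water. In Col-0 it had 5.203, 3.14 and 1.31 CPM with bicarbonate, against 0.640, 3.01 and 0.343 CPM with water. Libraries of the same group thus differed widely, and the treatments overlapped in both genotypes. The Col-0 response of 1.29 had a 95% interval of −0.26 to 2.84 (adjusted p = 0.625), the largest estimate among the 10 genes in any of the 5 responses. The SD of SUS4 within groups was 1.26 on the log2 scale, and 99.5% of 1318 genes of like level had a smaller one.

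Among the regulators, LBD41 and HRA1 did not pass in any comparison with all libraries in the fit. LBD41 had 12.3, 8.50 and 6.69 CPM in Col-0 with bicarbonate, against 4.92, 8.41 and 4.05 CPM with water. Its responses were 0.08 in oePsbS_CA1_CA2, 0.50 in oePsbS_CA1, −0.44 in oePsbS, −0.32 in npq4-1 and 0.67 in Col-0, with adjusted p of 0.364 or more. Without water replicate 1 of oePsbS, LBD41 fell in that genotype (−0.76, adjusted p = 0.0137). LBD41 was lowest of its group in that library, so leaving it out deepens the fall by construction. HRA1 lay between 1.81 and 5.92 CPM, and its responses ran between −0.43 and 0.35 with adjusted p of 0.489 or more.

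The oxygen-sensing cysteine oxidase genes passed in no response. PCO2 had 1.53, 1.60 and 1.06 CPM in Col-0 with bicarbonate, against 0.640, 0.753 and 0.571 CPM with water (log2 fold change 1.09, 95% interval 0.30 to 1.89, adjusted p = 0.345). PCO1 had 5.26, 3.19 and 3.12 CPM in Col-0 with bicarbonate, against 1.98, 2.57 and 2.00 CPM with water (0.82, 95% interval 0.20 to 1.45, adjusted p = 0.368). For both genes every bicarbonate library was above every water library, but how many of all genes were so separated was not counted. PCO1 was similarly placed in oePsbS_CA1, at 4.96, 3.10 and 2.79 CPM with bicarbonate against 0.938, 2.28 and 2.49 CPM with water (0.92, 95% interval 0.15 to 1.69, adjusted p = 0.255). Without the library low in βCA1 the value was 1.07 (adjusted p = 0.217). In npq4-1, oePsbS and oePsbS_CA1_CA2 the PCO1 and PCO2 responses lay between −0.11 and 0.26, with 95% intervals that reached as far as −1.07 and 1.22.

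Across the 24 comparisons made here, the 10 genes gave 240 values, of which 1 was called, 12 passed on the adjusted p alone and 59 had an unadjusted p under 0.05, the last beside 16.9% of the values of all genes in these comparisons. The study itself tested each genotype on its own. The 12 came from PDC2, SUS1, HB1 and ADH1 and from 8 comparisons, in which between 1.06% and 15.8% of all genes passed on the adjusted p alone. The call came from a comparison in which 2.13% of all genes were called. For the calls and the passes, shares of all genes over the 24 comparisons together are not given, so neither count sets the 10 genes apart. In the other 16 comparisons the smallest adjusted p was 0.0561. With water, 0 of 10 genes were called for npq4-1, oePsbS, oePsbS_CA1 or oePsbS_CA1_CA2 against Col-0, where 0.158%, 1.24%, 0.0421% and 0.0211% of all genes were called in that order. With bicarbonate, 0 of 10 were called for the same genotypes against Col-0, beside 0.0211%, 0.0579%, 0.974% and 1.18% of all genes. All 10 estimates for oePsbS against Col-0 with bicarbonate were below 0, with a median of −0.40, and the smallest adjusted p was 0.111. For oePsbS_CA1 and oePsbS_CA1_CA2 against oePsbS, 0 of 10 were called with water (0.711% and 1.59% of all genes) and 0 with bicarbonate (3.16% and 1.88%). For the responses of oePsbS, oePsbS_CA1 and oePsbS_CA1_CA2 minus that of Col-0, 0 of 10 were called, beside 0.0211%, 0% and 0.574% of all genes. DESeq2 called 0 in each of these. The comparisons with Col-0 share its libraries, as those with oePsbS do. Without oePsbS water replicate 1, LBD41 was called for oePsbS against Col-0 with water (1.01, adjusted p = 0.0352), and PCO1 for the response of oePsbS_CA1 minus that of oePsbS (1.32, adjusted p = 0.0414). PCO1 then also passed for oePsbS_CA1 against oePsbS with water (−0.99, adjusted p = 0.049). That library was the lowest of its group for LBD41 and PCO1, so leaving it out raises their oePsbS water mean by construction. These passes are therefore no separate evidence.

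The replicate spread was itself patterned. Each library's log2 CPM was set against the mean of its own group, and 7 of the genes, ADH1, PDC1, SUS4, LBD41, HRA1, PCO1 and PCO2, deviated together. Over the 30 libraries the 21 pairs among these 7 had Pearson correlations between 0.37 and 0.79, with a median of 0.69. The 24 pairs that involve PDC2, SUS1 or HB1 had correlations between −0.56 and 0.37, with a median of 0.13. The ranges overlapped slightly, since the lowest value among the 7 was 0.367 and the highest of the other pairs 0.372. The 7 were grouped after these values were seen, so the split is a description and carries no test. The points share libraries and their depths, and deviations within a group of 3 are tied to each other. Replicate 1 of oePsbS with water was the lowest of its 3 libraries for all 7 genes, by a median of −1.02 on the log2 scale. In it ADH1 had 2.25 CPM, against 7.09 and 7.07 CPM in the other 2 libraries, and SUS4 had 1 read. PDC2 and SUS1 had no such drop there, at 17.97 and 17.5 CPM. Replicate 3 of Col-0 with bicarbonate was also the lowest for all 7, and replicate 2 of Col-0 with water the highest for all 7. Replicate 1 of oePsbS with water was the shallowest of its group, at 15456009 reads against 16070767 and 18302002, as was replicate 3 of Col-0 with bicarbonate, at 16730115 reads against 17604252 and 17445290, while replicate 2 of Col-0 with water, at 16140105 reads, was between the other 2. The part of depth was not tested.

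**Figure D4:**
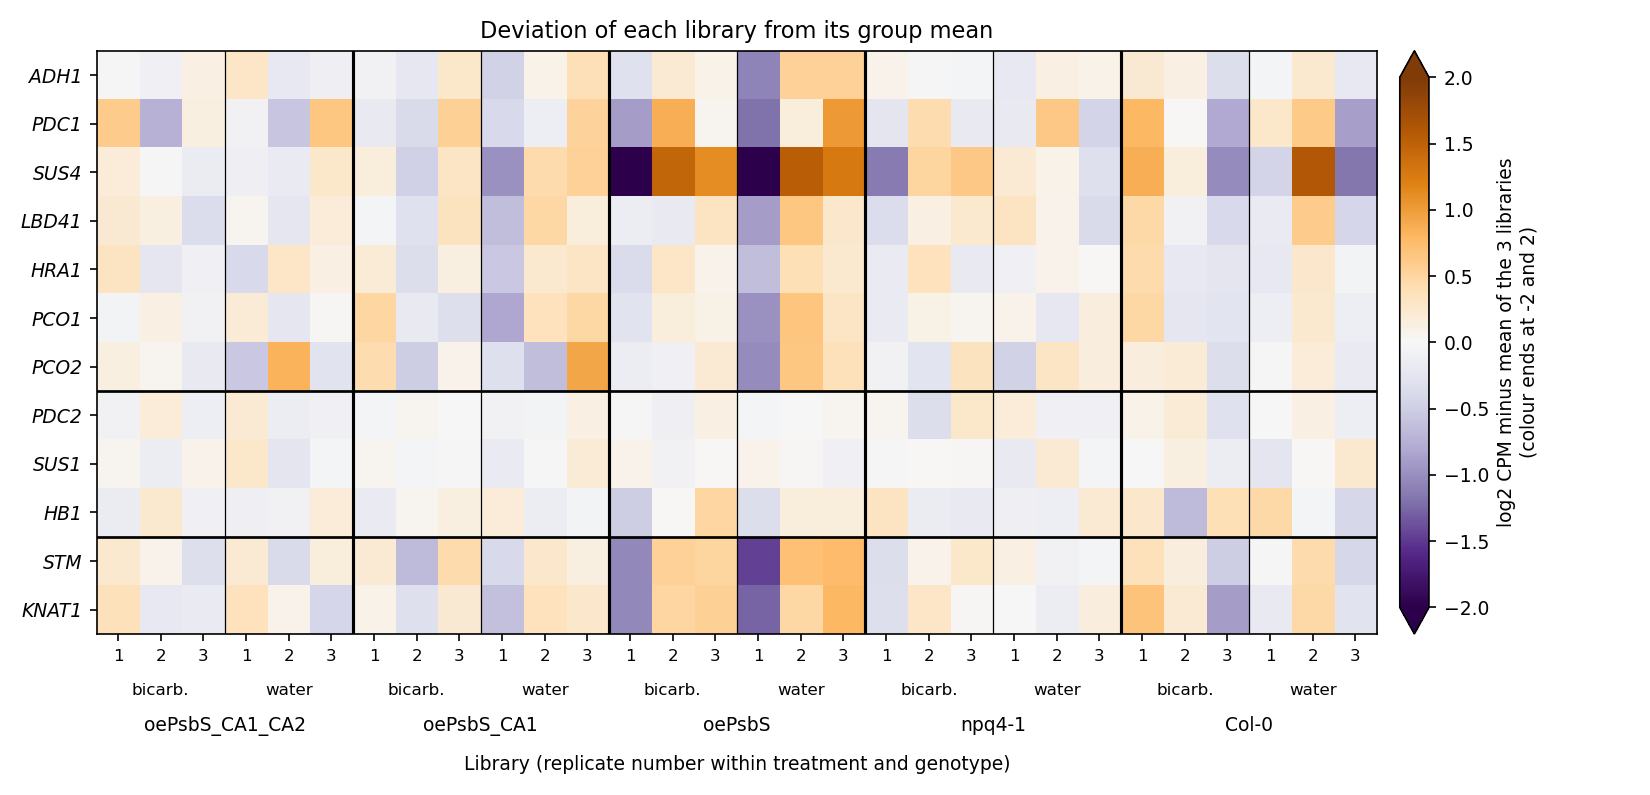
Deviation of log2 CPM from the mean of the group in each of the 30 libraries (columns, 3 per genotype and treatment, bicarbonate left of water) for the 7 genes that deviate together, for PDC2, SUS1 and HB1, and for the shoot meristem genes STM and KNAT1. Orange is above and purple below the group mean. Replicate 1 of oePsbS with water is purple for all 7 genes and for STM and KNAT1, and nearly white for PDC2 and SUS1.

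Other genes followed the same library pattern. Against the mean standardized deviation of the 7, 3.4% of all other tested genes had a correlation above 0.5, and on the list of other hypoxia-induced genes 8 of 35 did. The highest of all was ACO1 (AT2G19590), an ethylene synthesis gene, at 0.96, and SAD6 (AT1G43800), a stearoyl desaturase gene, reached 0.88. ZPR2 (AT3G60890), a small protein whose stability depends on oxygen in the shoot meristem, reached 0.79 and was 1 of 14 oxygen-sensing genes above 0.5. Among the 12 highest genes of the whole table stood STM (AT1G62360) at 0.90 and KNAT1 (AT4G08150) at 0.89, homeobox genes that mark the shoot apical meristem and stem tissue rather than leaf blades.

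In oePsbS, STM had 2.60, 7.98 and 7.83 CPM with bicarbonate, against 2.58, 11.9 and 12.3 CPM with water. Replicate 1 was thus the low one in both sets, as it was for SUS4. STM was picked for its high correlation with the mean of the 7 genes in these same libraries. High values for the 7, and lower ones for the genes left out of the 7, therefore follow in part from that choice. The values below are a description and carry no test. SUS4 followed STM most closely, with a Pearson correlation of 0.93 and a Spearman correlation of 0.91 between their deviations. ADH1 (0.84 and 0.75), LBD41 (0.80 and 0.80), PDC1 (0.75 and 0.72), PCO1 (0.74 and 0.68) and HRA1 (0.69 and 0.62) came next, and PCO2 was lower (0.49 and 0.45). HB1 (0.30 and 0.16), PDC2 (0.29 and 0.37) and SUS1 (−0.02 and 0.0042) were the lowest. Without the 2 libraries farthest from the median of STM, replicate 1 of oePsbS under each treatment, the Pearson correlation with STM was 0.88 for SUS4, 0.80 for LBD41, 0.75 for ADH1, 0.66 for PDC1, 0.64 for PCO1, 0.58 for HRA1 and 0.32 for PCO2 over 28 libraries. It was then 0.35 for PDC2, 0.11 for SUS1 and 0.04 for HB1, so PCO2 was not set apart from PDC2 there. The 21 pairs among the 7 genes had correlations of 0.22 to 0.80 with a median of 0.59 in these 28 libraries. The other 24 pairs had −0.55 to 0.39 with a median of 0.06, so the ranges overlapped here too.

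A list of 10 shoot meristem genes was added after STM and KNAT1 had been seen, so it is not independent. Of its genes 7 passed the filter on low counts, and 4 of these, STM, KNAT1, KNAT6 and KNAT2, had correlations above 0.5 with the mean of the 7. CUC2 (0.46), CLV1 (0.28) and CUC3 (0.0033) did not. CLV3 was at 0 reads in 28 of 30 libraries and WUS in 21, and CUC1 had a median of 2 reads. Summed over the 7 tested markers, of which CLV1 with a median of 69.6 CPM made up the most, the level lay between 84.7 and 121.4 CPM in oePsbS with water and between 69.4 and 86.9 CPM in Col-0 with water. In Col-0, where PCO1, PCO2 and LBD41 had their higher values with bicarbonate, STM had 12.3, 10.6 and 6.69 CPM with bicarbonate, against 4.86, 6.78 and 3.71 CPM with water. The part of meristem or stem tissue in these values was not tested. Among the markers of other tissues that were tested, 0 of 2 root, 0 of 7 flower and 0 of 5 guard cell genes had a correlation above 0.5 with the mean of the 7.

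**Figure D5:**
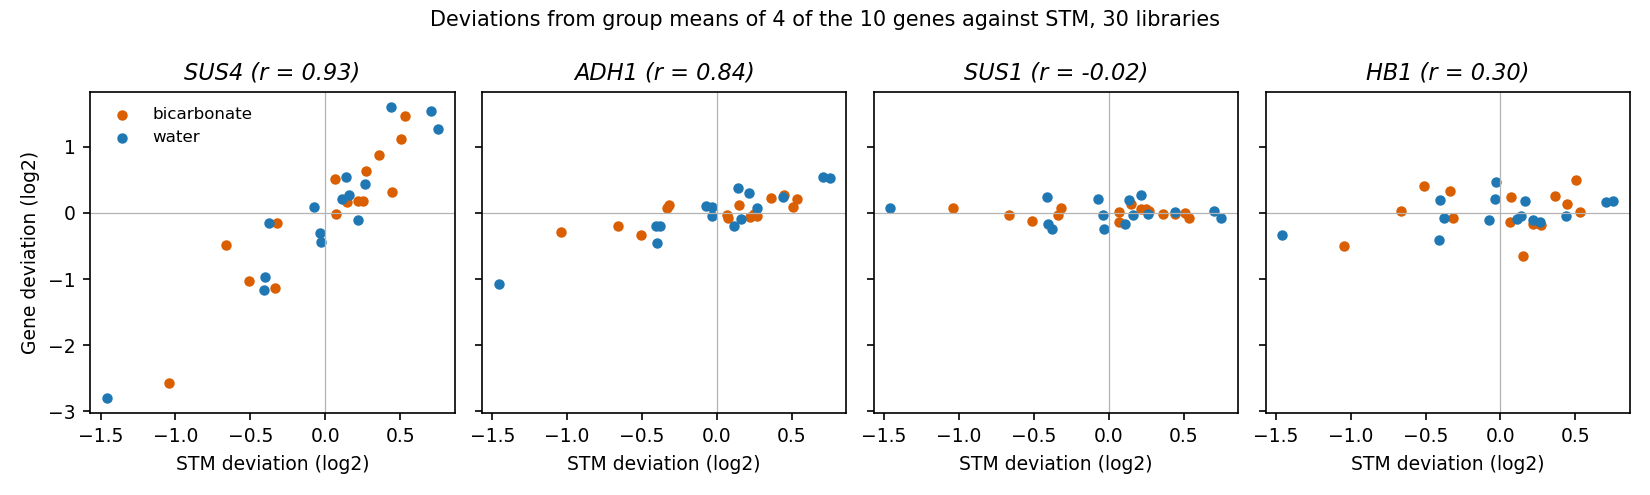
Deviations from group means of SUS4, ADH1, SUS1 and HB1 (log2) against those of STM in the same 30 libraries, bicarbonate in orange and water in blue. SUS4 and ADH1 follow STM (r of 0.93 and 0.84), while SUS1 and HB1 do not (−0.02 and 0.30). STM was picked for its correlation with a set of genes that includes SUS4 and ADH1, so this contrast is not independent. The 2 leftmost points are replicate 1 of oePsbS with water and with bicarbonate.

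Of 15 genes of the oxygen-sensing machinery, among them the group VII ERF genes, the other PCO genes and the N-degron ligase gene PRT6, 14 were tested, and 0 were called in any of the 5 responses. On the adjusted p alone RAP2.3 (AT3G16770), a group VII ERF gene, rose in oePsbS_CA1, at 278.7, 245.6 and 289.4 CPM with bicarbonate against 159.2, 154.1 and 167.2 CPM with water (0.76, standard error 0.08, adjusted p = 0.00299), and by 0.71 (adjusted p = 0.00126) without the library low in βCA1. It rose in oePsbS_CA1_CA2, at 239, 254.5 and 233.6 CPM with bicarbonate against 163.7, 112.6 and 134 CPM with water (0.84, standard error 0.12, adjusted p = 0.00747). In oePsbS it had 210.3, 147.5 and 161.2 CPM with bicarbonate against 182.7, 255.9 and 257.9 CPM with water (−0.42, standard error 0.14, adjusted p = 0.0772). The response minus that of oePsbS was called in both lines, at 1.19 (standard error 0.22, adjusted p = 0.00452) for oePsbS_CA1 and 1.25 (standard error 0.23, adjusted p = 0.00132) for oePsbS_CA1_CA2. Without the library low in βCA1 the first was 1.12 (adjusted p = 0.0122). RAP2.12 (AT1G53910), the main oxygen-labile activator of this set, fell in oePsbS (−0.32, standard error 0.08, adjusted p = 0.0199), as did ATE2, an arginyl transferase gene (−0.46, standard error 0.12, adjusted p = 0.025).

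The paralogs and metabolic partners of the members gave 0 calls among 16 tested genes in all 5 responses. In the mean response, where 15.8% of all genes passed on the adjusted p alone in either direction, 4 of the 16 passed as decreases. They were ALDH2B4 (−0.17, adjusted p = 0.000116) and ALDH2B7 (−0.29, adjusted p = 0.0152), aldehyde dehydrogenase genes, ALAAT1 (−0.13, adjusted p = 0.00415), an alanine aminotransferase gene, and HB2 (−0.14, adjusted p = 0.0131), the second phytoglobin gene. All were smaller changes than those of PDC2 and SUS1. The sucrose synthase genes SUS2, SUS3, SUS5 and SUS6 and the decarboxylase genes PDC3 and PDC4 did not pass in this mean.

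A list of 38 other genes induced by low oxygen gave calls in 3 of the 5 responses. With bicarbonate 8 of 33 tested genes were called higher in oePsbS_CA1_CA2 and 2 of 33 in oePsbS_CA1, while 4 of 31 were called lower in oePsbS and 0 were called in npq4-1 (32 tested) or Col-0 (31 tested). Tested as differences over 35 genes, the response of oePsbS_CA1_CA2 was called higher than that of oePsbS for 10 and than that of Col-0 for 4. The response of oePsbS_CA1 was called higher than that of oePsbS for 8 (3 without the library low in βCA1) and than that of Col-0 for 0. The response of the double line was thus not shown to differ from that of Col-0 on this list. Its level with bicarbonate was called above that of Col-0 for genes that include PHI-1 (3.34, adjusted p = 0.00143), CYP707A3 (2.34, adjusted p = 0.0024) and SRO5 (AT5G62520, 4.88, adjusted p = 0.00321). These values include the library low in βCA1. The list was written with the study known, and it holds genes the study picked from these libraries, so its direction is not independent evidence. CML38 (AT1G76650), a calmodulin-like protein gene, had 15.2, 25.9 and 33.9 CPM in oePsbS_CA1_CA2 with bicarbonate, against 1.49, 1.20 and 0.713 CPM with water (4.47, standard error 0.35, adjusted p = 0.00186). In oePsbS_CA1 it had 5.95, 11.1 and 39.2 CPM with bicarbonate, against 2.19, 2.34 and 2.73 CPM with water (2.94, standard error 0.61, adjusted p = 0.0386). The highest of these, 39.2 CPM, was the library low in βCA1, and without it the value was 1.81 (adjusted p = 0.00499). PBP1 (AT5G54490), a calcium-binding protein gene, rose by 3.22 in oePsbS_CA1_CA2 (standard error 0.42, adjusted p = 0.0049) and by 1.51 in oePsbS_CA1 (standard error 0.18, adjusted p = 0.0044, and 1.40 with an adjusted p of 0.00571 without the library low in βCA1). CYP707A3 (AT5G45340), which encodes an abscisic acid hydroxylase, rose by 3.16 (standard error 0.35, adjusted p = 0.00281) and PHI-1 (AT1G35140) by 2.57 (standard error 0.29, adjusted p = 0.0031) in oePsbS_CA1_CA2. In the same 6 libraries of that line ADH1, PDC1, SUS4, HB1, LBD41, HRA1, PCO1 and PCO2 had responses between −0.48 and 0.26 with adjusted p of at least 0.248. In oePsbS the lower genes were AT3G10020 (−1.19, adjusted p = 0.00131), AT2G15880 (−1.22, adjusted p = 0.00488), PHI-1 (−1.05, adjusted p = 0.0132) and the ethylene receptor gene ETR2 (−1.02, adjusted p = 0.015).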

How the data were processed

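The authors made strand-specific mRNA libraries from rosettes of 4-week-old plants and assigned reads with Salmon to Ensembl TAIR10 transcripts, and the version of Salmon is not given in the sources used here. The files hold 48268 transcripts of 27588 loci. The estimated counts are, as deposited by the authors, reads assigned per transcript with no normalization, and the TPM values deposited by the authors divide them by effective length and scale them to a fixed total. Transcripts were summed per locus, and the summed reads of the 10 genes were whole within 0.01 reads in all libraries. Of the loci, 27390 matched the reference table by locus tag. Coordinates and sequences are left out, because the reference table is of TAIR10.1 and the files of TAIR10.

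Counts were rounded, normalized by TMM, filtered with filterByExpr (minimum count 10, minimum total 15) and tested with edgeR 4.0.16 (quasi-likelihood F test, R 4.3.3, limma 3.58.1), with Benjamini-Hochberg adjustment over all genes tested. The bicarbonate response of each genotype was fitted in its 6 libraries, and the other 19 comparisons in all 30 libraries with 18999 genes. Standard errors were taken from the fold change and F, and intervals are at 95%. Within-group deviations used log2 CPM with a prior count of 2, and tables were handled with pandas 2.3.3. The method was tested on simulated data with the same spread for every gene and with changes larger than those of PDC2 and SUS1. That test therefore does not cover genes as variable as SUS4 or changes as small as these. No 2 libraries, of 435 pairs, held identical counts. Alternatives were counts rebuilt from TPM and length, DESeq2 1.42.0, limma on log2(TPM + 1) for genes with a mean of at least 0.5 TPM, testing without the low-count filter, size factors by RLE, all 30 libraries or only the groups compared, a replicate block, the adjusted p alone, and each library left out.

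The 10 genes and the gene lists were chosen with earlier results of these data known. All 10 genes are named in every comparison. From the other lists, called genes were named, up to 4 per list and comparison by smallest adjusted p, together with the 3 genes most correlated with each called member and the transgenes. ACO1, SAD6, ZPR2, STM, KNAT1, the other meristem genes and genes passing on the adjusted p alone were named after their values were seen. Antisense counting could not be checked, since Salmon's library type is not given in the sources used here.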

Additional observations from a re-analysis of the deposited data

Results flagged for a closer look

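The bicarbonate response of HB1 differed between oePsbS_CA1 and oePsbS by 1.19 on the log2 scale in edgeR's test of the difference (adjusted p = 0.037). HB1 was higher with bicarbonate than with water in all 3 libraries of oePsbS_CA1, and its mean was lower with bicarbonate in oePsbS. The library low in βCA1 is 1 of the 12 behind this value, and the adjusted p without it is 0.0801.

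In npq4-1 and oePsbS_CA1 the HB1 libraries of the treatments did not overlap and lay in opposite directions, with a difference of 0.94 between the log2 responses of oePsbS_CA1 and npq4-1. This difference was not tested, and neither HB1 response passed on the adjusted p. The share of all genes without overlap was not counted, so the lack of overlap is only a description. Without the library low in βCA1 the oePsbS_CA1 response of HB1 was 0.39, against 0.46 with it.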

How the results depend on the processing

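Counts of the 10 genes called were the same as the main ones under DESeq2, limma on log2 TPM, counts rebuilt from TPM, size factors by RLE, testing without the low-count filter, all 30 libraries, only the groups compared and the replicate block, and no value changed sign while called. On the adjusted p alone the count was 3 in the response of npq4-1, 1 in those of oePsbS and of oePsbS_CA1, 1 for oePsbS against Col-0 with water, 1 for oePsbS_CA1 against oePsbS with water, 2 for oePsbS_CA1_CA2 against oePsbS with water and 2 for the mean response. Leaving out 1 library, the count ranged from 0 to 1 in the oePsbS response (HB1, −1.04, without bicarbonate replicate 3), for oePsbS against Col-0 with water (LBD41, without oePsbS replicate 1) and for the response of oePsbS_CA1_CA2 minus that of oePsbS (HB1, without oePsbS bicarbonate replicate 3). It ranged from 0 to 2 for the response of oePsbS_CA1 minus that of oePsbS, with HB1 and PCO1 called without oePsbS water replicate 1 and 0 called without any 1 of 8 libraries. The labels give replicate numbers without saying whether they pair the samples. Of 15 correlations between same-numbered libraries 3 were over 0.1, the highest being 0.138 for replicate 1 of oePsbS. Differently numbered libraries were not set beside them, so these correlations cannot decide whether the samples were paired. With the replicate block 235 of 240 values kept their side of the threshold and moved little, 2 newly passed on the adjusted p (PDC2 in Col-0, −0.70, adjusted p = 0.0379, and HB1 in oePsbS, −0.75, adjusted p = 0.0207) and 3 moved by more than the spread between replicates. With limma on log2 TPM, 5 values no longer passed on the adjusted p, namely PDC2 (0.0906), SUS1 (0.106) and ADH1 (0.0847) in npq4-1, PDC2 in oePsbS_CA1 (0.0746) and SUS1 for oePsbS_CA1 against oePsbS with water (0.0693). DESeq2 newly passed 7 values and lost 0, among them PDC2 in Col-0 (0.00457) and HB1 in oePsbS (0.0384). The causes were not tested. The mean responses of PDC2 and SUS1 passed in 6 of 6 alternative fits. The mean response has no fit of only the groups compared, since it uses all of them, and limma on TPM gave 238 of the 240 values, the others being below its minimum mean. Low read counts of SUS4, PDC1 and PCO2 limit what can be seen in them. Leaving out the library low in βCA1 for RAP2.3, PBP1 and CML38 was chosen after seeing the data. The calls of LBD41 and PCO1 without oePsbS water replicate 1 rest on dropping the lowest value of that group.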

Other observations

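Over the 30 libraries the genes whose log2 CPM was most like that of HB1 were a MOB1-like gene (AT5G45550, r = 0.74), AT3G62370 (r = 0.73) and SYP71 (AT3G09740, r = 0.73). These correlations include differences between groups and share depth and libraries.

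SUS1, SUS4 and PCO2 had more than 1 annotated transcript. For SUS1, 42.6% of its assigned reads went to the first transcript, 19.4% to the second and 37.9% to the third, and the third was at 0 in 10 libraries. For SUS4, 69.7% went to the second transcript and 30.3% to the first. For PCO2, 84.3% went to the first and 15.7% to the second. Shares of transcripts of 1 gene rest on Salmon's division of shared reads and were not compared between groups.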
